A study of Mus musculus with 6 samples.

Results

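White adipocytes receive noradrenaline from sympathetic nerves through adrenergic receptors, and 9 genes of that signal, from receptor to nucleus, were followed here in inguinal white adipose tissue (IngWAT). They were chosen by name and not by their values, as 9 of the 46517 genes counted. They encode the β receptors *Adrb1* and *Adrb3*, the α receptors *Adra1a* and *Adra2a*, the protein kinase A (PKA) subunits *Prkaca*, *Prkacb* and *Prkar2b*, the phosphodiesterase *Pde3b* and the transcription factor *Creb1*. Genes were tested if any sample reached 1 cpm (counts per 1e+06 counts). Of the 9, all but *Adra2a* did, leaving 8, and 14967 genes did in all.

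Mice of both genotypes were C57Bl6, 5 to 9 months old and fed chow, and all carried floxed *Hdac3*, the gene of histone deacetylase 3. H3atKO mice also carried the B6:FVB-Tg(Adipoq-cre)1Evdr/J transgene, in which the adiponectin promoter drives Cre recombinase in adipocytes, so that the other cells of the tissue were not targeted. Floxed mice were the controls. Each sample was RNA pooled from 2 or 3 mice of 1 genotype, there were 3 samples per genotype, and RNA-seq measured poly(A) transcripts of the whole tissue. The comparison asks how loss of *Hdac3* from adipocytes altered mRNA of the adrenergic and cAMP pathway.

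As background, β receptors couple to the stimulatory G protein, adenylyl cyclase then makes cAMP, and cAMP releases the catalytic subunits of PKA from their regulatory subunits. PKA phosphorylates hormone-sensitive lipase and perilipin on the lipid droplet, which starts lipolysis, and CREB in the nucleus, which starts transcription. α2 receptors oppose the cyclase, α1 receptors act through phospholipase C and calcium, and phosphodiesterases break cAMP down. In rodent fat the β3 receptor is known for driving lipolysis and thermogenesis.

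Samples held between 23865507 and 35200685 counts on genes, at which 3 counts amount to between 0.0658 and 0.190 cpm after scaling, a floor of counting error only. *Hdac3* fell from 71.6 ± 7.61 to 20.4 ± 7.28 cpm (SD, n = 3 each; log2 fold change −1.83, adjusted p = 0.0213 from limma voom) and was lower in every H3atKO sample. Transcripts of the mitochondrial genome took 6.92% to 12.9% of counts in floxed and 26.9% to 35.3% in H3atKO samples. GC content of the transcripts went with genotype. The Spearman correlation, across genes, of a sample's deviation from the gene mean with GC content ran from 0.0969 to 0.80 in floxed and from −0.711 to −0.433 in H3atKO samples. An effect of GC content cannot be told apart from one of genotype. The adipocyte markers were plentiful in both genotypes, with a summed level of 18889 to 34455 cpm in floxed and 21944 to 39156 cpm in H3atKO samples, and 0 of the 10 were called by limma voom. The sum is led by *Fabp4* and *Cd36*, and the other 8 markers had negative log2 fold changes. Of these, *Lipe*, *Slc2a4* and *Retn* were lower in every H3atKO sample (−3.04, −1.49 and −1.57, adjusted p = 0.0524, 0.0620 and 0.0629 from limma voom), as were 28.6% of all tested genes. At an unadjusted p under 0.05 from limma voom, 3 of the 10 adipocyte markers were lower and 1 was higher, and edgeR called 2. Of the other marker lists, the sums for endothelial cells (627 to 967 against 430 to 573 cpm), stromal cells (1490 to 5827 against 757 to 1127 cpm) and Schwann cells and nerve (100 to 125 against 45.4 to 66.2 cpm) were lower in every H3atKO sample, with 2 of 6, 2 of 6 and 3 of 6 markers called lower. Of all tested genes 28.6% were lower in every H3atKO sample and 7.07% were called lower by limma voom. Smooth muscle sums of 401 to 1443 against 493 to 757 cpm overlapped with 3 of 6 markers lower, and macrophage sums of 167 to 864 against 181 to 316 cpm overlapped with 1 of 5 lower. Skeletal muscle sums of 608 to 2661 against 25.6 to 3645 cpm and B and T cell sums of 4.01 to 90.1 against 6.52 to 367 cpm overlapped with none called by limma voom among 6 each. No marker of any list was at 0 in every sample, and the part of these shifts in the results below was not tested.

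Of the 8 tested genes, 4 were upregulated in H3atKO samples by limma voom at an adjusted p under 0.05, namely *Prkar2b*, *Pde3b*, *Creb1* and *Prkacb*, and 0 were down-regulated. Among all tested genes 9.42% were called higher and 7.07% lower. No member was lower at an unadjusted p under 0.05 either, and edgeR, which called 12.8% of all genes higher and 18.4% lower, also called 4 members higher and 0 lower. These 8 had a median log2 fold change of 0.96, against −0.09 for all tested genes. The 4 that rose encode a catalytic and a regulatory subunit of PKA, a phosphodiesterase and a transcription factor, and none of the 3 tested receptors passed the test by limma voom, adjusted or not, or by edgeR. In a whole tissue, a changed share of a cell type and a changed amount of RNA per cell cannot be told apart for any of these genes.

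**Figure D1:**
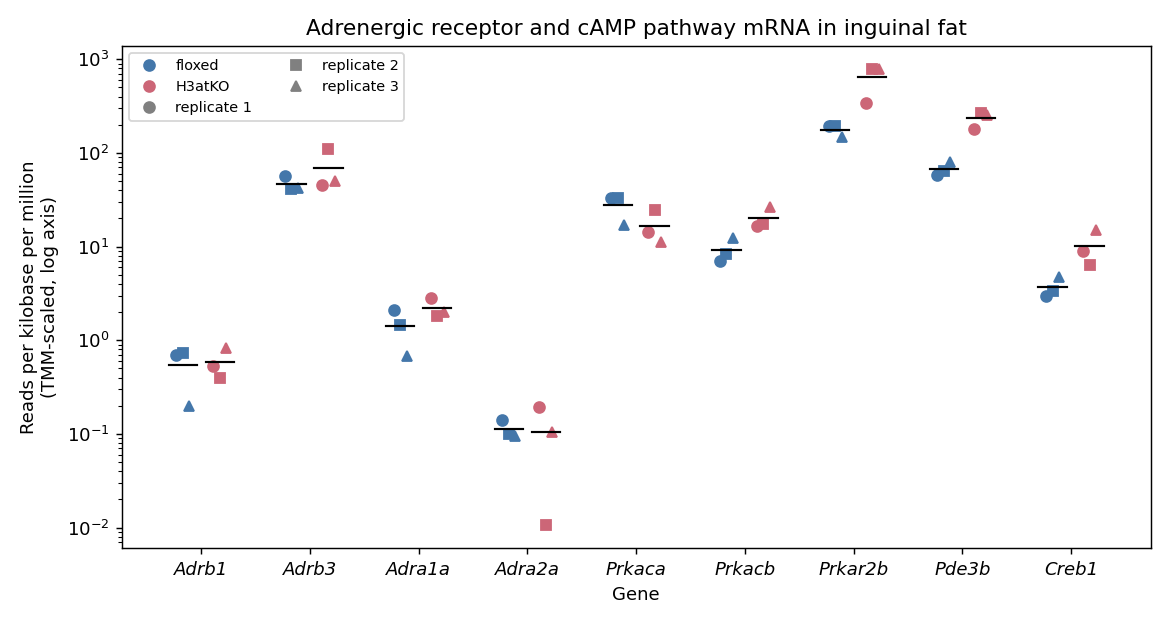
mRNA level of the 9 genes in each sample, in TMM-scaled RPKM (reads per kilobase, scaled by library as cpm) on a log axis, with floxed samples in blue, H3atKO samples in red, marker shape giving the replicate number and a black line at each group mean. *Prkar2b*, *Pde3b*, *Prkacb* and *Creb1* are higher in every H3atKO sample than in any floxed sample, and the other 5 genes overlap.

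Levels of different genes were compared per length of all annotated exons of a gene, in reads per kilobase, scaled by library as cpm (RPKM). In floxed samples the order was *Prkar2b* (178 ± 26.0 RPKM), *Pde3b* (67.3 ± 11.2), *Adrb3* (46.5 ± 8.27), *Prkaca* (27.9 ± 9.39), *Prkacb* (9.20 ± 2.78), *Creb1* (3.69 ± 0.947), *Adra1a* (1.41 ± 0.704), *Adrb1* (0.544 ± 0.298) and *Adra2a* at 0.112 (SD, n = 3 each). Only *Adra1a* and *Adrb1* overlapped among neighbours. *Prkar2b* lay above 99.4% of tested genes in level, *Pde3b* above 97.7% and *Adrb3* above 96.2%. In H3atKO samples the ends of the order were kept, with *Prkar2b* at 642 ± 257, *Pde3b* at 235 ± 48.2 and *Adrb3* at 68.2 ± 36.2 RPKM, and *Adra2a* last at 0.104 RPKM. In the middle *Prkacb* (20.0 ± 5.57 RPKM), *Prkaca* (16.7 ± 6.83) and *Creb1* (10.1 ± 4.51) overlapped from neighbour to neighbour. Some of these neighbours changed with the length used. Per length of the longest transcript, *Prkaca* and *Prkacb* overlapped in floxed samples (30.5 ± 10.3 and 18.6 ± 5.62 RPKM) and *Adra1a* and *Adrb1* did not. In H3atKO samples *Prkar2b* then overlapped *Pde3b*, and *Prkacb* (40.5 ± 11.2 RPKM) lay above *Prkaca* (18.2 ± 7.46) in every sample.

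*Adrb3* (ENSMUSG00000031489, GRCm38 chromosome 8, 27225776 to 27250616, minus strand) encodes the β3 receptor, the main β receptor of rodent adipocytes. It had 189, 139 and 142 cpm in floxed replicates 1 to 3 and 152, 371 and 168 cpm in H3atKO replicates 1 to 3. H3atKO replicate 2 stood above the other 5 samples, which spanned 139 to 189 cpm, so the groups overlapped. The log2 fold change was 0.45 (95% interval −0.42 to 1.31, adjusted p = 0.373 from limma voom) and was −0.01 without H3atKO replicate 2. *Adrb3* overlaps Gm45470 on the opposite strand, which was not analysed here. Library preparation kept the strand, but the sources used here do not state the strand setting of the counting.

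The β1 receptor gene *Adrb1* (ENSMUSG00000035283, chromosome 19, 56722199 to 56733113, plus strand) was counted sparsely, with 108, 103 and 28 reads in floxed and 44, 26 and 44 reads in H3atKO samples. Its levels of 2.37, 2.47 and 0.680 cpm and of 1.81, 1.32 and 2.78 cpm overlapped, and the log2 fold change was 0.22 (95% interval −1.29 to 1.74, adjusted p = 0.804 from limma voom). The interval spans a fall and a rise of more than 1 on the log2 scale. The direction turned to −0.37 without floxed replicate 3 and to −0.02 without H3atKO replicate 3.

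*Adra1a* (ENSMUSG00000045875, chromosome 14, 66635251 to 66771168, plus strand), the α1A receptor, had 18.2, 12.8 and 5.90 cpm in floxed and 24.7, 15.8 and 17.6 cpm in H3atKO samples. The 2 groups overlapped, with floxed replicate 3 lowest, and the log2 fold change was 0.78 (95% interval −0.30 to 1.86, adjusted p = 0.219 from limma voom). *Adra2a* (ENSMUSG00000033717, chromosome 19, 54044151 to 54048982, plus strand), the α2A receptor, had 31, 20 and 19 reads in floxed and 23, 1 and 8 reads in H3atKO samples. These are 0.680, 0.480 and 0.461 against 0.946, 0.0510 and 0.505 cpm, and the single read of H3atKO replicate 2 is below the 3-count floor. It did not enter the fit.

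The other α1 receptor genes were rare. *Adra1d*, the α1D receptor, had 92, 33 and 7 reads in floxed and 0 in each H3atKO sample. Its group mean was at least 6.40-fold lower when 3 counts are allowed in each H3atKO library, or at least 3.10-fold without floxed replicate 1. This holds for means only, as floxed replicate 3, at 0.170 cpm, lay below the 0.190 cpm that 3 counts make in H3atKO replicate 3. *Adra1d* and *Adra1b*, the α1B receptor gene, reached 1 cpm in floxed samples only. The adjusted p from limma voom was 0.0682 for *Adra1d* and 0.0653 for *Adra1b*, so neither passed, and both passed with edgeR (0.0334 and 0.0316) and with the replicate number as a block (0.0147 and 0.0293). Neither passed with GC correction (0.103 and 0.166) or with block and correction (0.122 and 0.215).

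Ratios of genes within a sample do not depend on how libraries are scaled. The log2 ratio of *Adrb3* to *Adra2a*, per exon length, sets the receptor that stimulates the cyclase against one that inhibits it. It was 8.61, 8.66 and 8.75 in floxed samples, a narrow range, and 7.81, 12.8 and 8.81 in H3atKO samples. The mean difference of 1.12 rested on H3atKO replicate 2, which had a single *Adra2a* read and also the highest *Adrb3* level, 371 cpm. It was −0.37 without that sample (two-sided exact permutation p = 0.7 with it, n = 3 each, where 0.1 is the smallest p that 3 against 3 can give).

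The catalytic subunits of PKA carry the kinase activity. *Prkacb* (ENSMUSG00000005034, chromosome 3, 146729574 to 146812990, minus strand), the β catalytic subunit, had 61.5, 72.4 and 108 cpm in floxed and 144, 151 and 232 cpm in H3atKO samples. Every H3atKO sample was above every floxed sample, as for 23.2% of all tested genes, whereas 28.6% were lower in every H3atKO sample. The gene rose 2.19-fold (log2 fold change 1.13, 95% interval 0.41 to 1.85, adjusted p = 0.0478 from limma voom). Its opposite-strand neighbour Gm19104 had 0 reads in all 6 samples.

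*Prkaca* (ENSMUSG00000005469, chromosome 8, 83972993 to 83996443, plus strand), the α catalytic subunit, had 83.1, 82.8 and 42.5 cpm in floxed and 36, 60.5 and 27.9 cpm in H3atKO samples. Floxed replicate 3 lay inside the H3atKO range. The log2 fold change was −0.75 (95% interval −1.67 to 0.18, adjusted p = 0.178 from limma voom), and each H3atKO sample was below the floxed sample of the same number, by 1.198, 0.449 and 0.60 on the log2 scale. With the replicate number as a block *Prkaca* passed as lower (log2 fold change −0.76, adjusted p = 0.0287), as did 28.7% of all tested genes. *Prkaca* passed as lower also without floxed replicate 3 (−1.06, adjusted p = 0.0419), in a fit that called 6557 genes in all, against 2468 with all 6 samples. With GC correction its direction turned (0.49, adjusted p = 0.262).

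The log2 ratio of *Prkaca* to *Prkacb* per length was 2.25, 2.01 and 0.469 in floxed and −0.184, 0.496 and −1.24 in H3atKO samples. *Prkaca* was the more abundant of the pair in all 3 floxed samples and in 1 of the 3 H3atKO samples per length of all exons, but in 2 floxed and 0 H3atKO samples per length of the longest transcript. The difference between genotypes does not depend on the length. The mean went from 1.58 ± 0.967 to −0.309 ± 0.874 (SD), a difference of −1.89 with 1 overlapping pair of samples (two-sided exact permutation p = 0.2, n = 3 each; 0.5 after Benjamini-Hochberg adjustment over 5 ratios). The transcripts differ in GC content, 54.9% for *Prkaca* and 45.4% for *Prkacb*, and with GC correction the difference was −0.15.

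CREB binds the cAMP response element, TGACGTCA, or its core, TGACG, read as CGTCA from the other strand. The 250 bases before each RefSeq start (GRCm38.p6) were searched for these letters on both strands. TGACGTCA stood in 1.55% of 32851 promoters and a core in 17.8%, in which those with the whole element are included. Of the 9 genes, 6 had promoter entries, none of those 6 held the whole element, and 4 held a core (*Adrb1*, *Adra2a*, *Prkaca* and *Prkacb*), in 4 of their 10 promoters. Of the other pathway genes, 4 of 94 with an entry held the whole element (*Prkar1a*, *Dio2*, *Dusp1* and *Th*), in 4 of 144 promoters or 2.78%, and 41 of the 144 held a core or more. That list holds 12 genes known to respond to cAMP, *Dio2* and *Dusp1* among them, so its shares are no independent comparison with all promoters. Matches are letters only, with no binding measured. The pair of catalytic subunits is shown with *Prkar1a* and *Dio2*, both described below, with the match in capitals and 15 bases on each side. The windows are Prkaca chr8:83972843-83972877 plus, Prkacb chr3:146813029-146813063 minus, Prkar1a chr11:109650885-109650922 plus and Dio2 chr12:90739111-90739148 minus.
Prkaca: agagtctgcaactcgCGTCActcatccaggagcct
Prkacb: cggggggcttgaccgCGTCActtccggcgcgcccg
Prkar1a: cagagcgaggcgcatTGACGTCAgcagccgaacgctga
Dio2: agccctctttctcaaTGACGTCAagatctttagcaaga

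*Prkar2b* (ENSMUSG00000002997, chromosome 12, 31958476 to 32061296, minus strand) encodes RIIβ, the PKA regulatory subunit typical of adipose tissue, which holds the catalytic subunits inactive until cAMP binds. It had 702, 705 and 539 cpm in floxed and 1261, 2892 and 2881 cpm in H3atKO samples. All H3atKO samples were higher, replicate 1 less so than the other 2. The gene rose 3.42-fold (log2 fold change 1.77, 95% interval 0.92 to 2.63, adjusted p = 0.0292 from limma voom), and by 0.85, 2.04 and 2.42 on the log2 scale between samples of the same number.

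*Prkar1a*, the RIα subunit found in most tissues, was at 230, 222 and 248 cpm in floxed and 342, 403 and 467 cpm in H3atKO samples. Its groups did not overlap, and its adjusted p was 0.0513 from limma voom (log2 fold change 0.78) and 0.0146 with the replicate block. The log2 ratio of *Prkar2b* to *Prkar1a* was 1.85, 1.91 and 1.36 in floxed and 2.12, 3.09 and 2.87 in H3atKO samples, a 1.98-fold shift towards *Prkar2b* in which the groups did not overlap. Its two-sided exact permutation p was 0.1 (n = 3 each), the smallest possible, and 0.5 adjusted over 5 ratios. Of the 4 ratios described it was the one whose groups did not overlap, and with GC correction the log2 difference was 0.79 in place of 0.99.

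*Pde3b* (ENSMUSG00000030671, chromosome 7, 114415281 to 114539251, plus strand) encodes the phosphodiesterase through which insulin lowers cAMP in adipocytes. It had 524, 592 and 724 cpm in floxed and 1641, 2460 and 2326 cpm in H3atKO samples, the lowest H3atKO sample being well above the highest floxed one. It rose 3.47-fold (log2 fold change 1.80, 95% interval 1.18 to 2.42, adjusted p = 0.0151 from limma voom). *Pde4d*, of another cAMP phosphodiesterase family, was at 26.7, 26.4 and 20.9 cpm in floxed and 82.0, 32.1 and 16.0 cpm in H3atKO samples (log2 fold change 0.57, adjusted p = 0.422 from limma voom). The log2 ratio of *Pde3b* to *Pde4d* per length was 4.69, 4.88 and 5.51 in floxed and 4.72, 6.66 and 7.58 in H3atKO samples. These overlapped (difference 1.29, two-sided exact permutation p = 0.3, n = 3 each), H3atKO replicate 1 being near the floxed values.

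**Figure D2:**
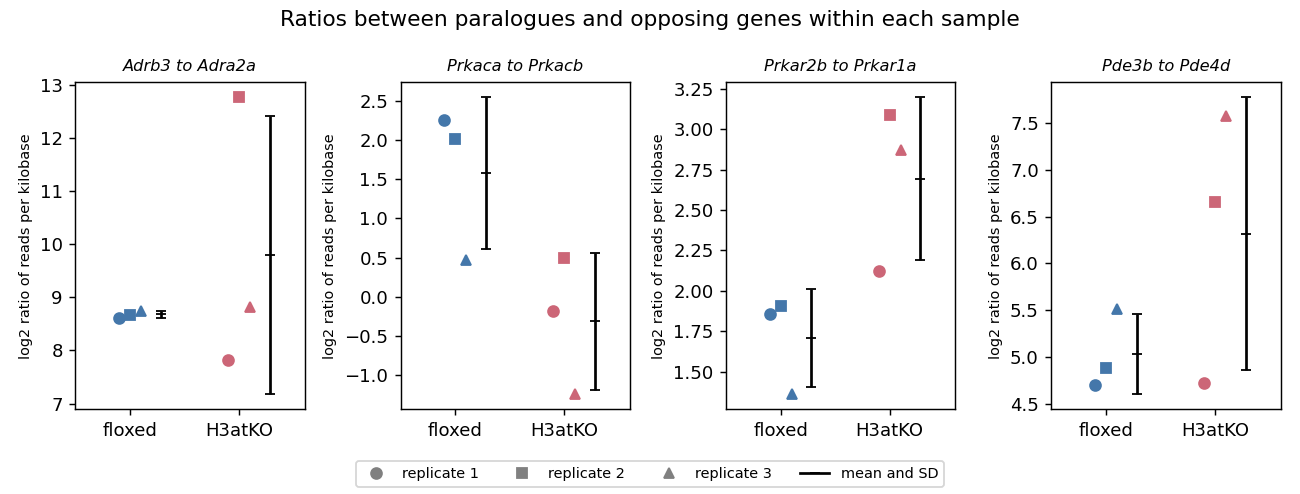
The 4 log2 ratios of reads per kilobase within each sample, with floxed samples in blue, H3atKO samples in red, marker shape giving the replicate number and black bars giving mean and SD of 3 samples. Of the 4, *Prkar2b* to *Prkar1a* is the ratio whose groups do not overlap, at 1.36 to 1.91 in floxed and 2.12 to 3.09 in H3atKO samples.

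*Creb1* (ENSMUSG00000025958, chromosome 1, 64532645 to 64604548, plus strand) encodes the transcription factor CREB, which PKA phosphorylates. It had 40.7, 45.9 and 65.4 cpm in floxed and 122, 86.4 and 207 cpm in H3atKO samples, all of them above the floxed range. It rose 2.61-fold (log2 fold change 1.38, 95% interval 0.53 to 2.23, adjusted p = 0.0441 from limma voom). Its transcript had the lowest GC content of the 9, 39.6%.

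Among the 4 calls, those of *Prkacb* and *Creb1* lay close to the threshold. Pools with the same replicate number deviated together, and with that number as a block limma voom gave adjusted p = 0.00408 for *Prkacb*, 0.00878 for *Prkar2b*, 0.00303 for *Pde3b* and 0.00467 for *Creb1*, in a fit that called 24.8% of all tested genes higher and 28.7% lower. Each of the 4 kept an unadjusted p under 0.05 when any sample was left out. After adjustment, 4 were called without floxed replicate 3, 2 without H3atKO replicate 1 (*Prkar2b* and *Pde3b*) and 1 without H3atKO replicate 2 (*Pde3b*). In that order, these fits called 6557, 246 and 534 of all tested genes, against 2468 with all 6 samples. No member was called by limma voom without floxed replicate 1, floxed replicate 2 or H3atKO replicate 3. There 5, 4 and 4 members had an unadjusted p under 0.05, and 239, 1 and 107 of all tested genes were called. Scaling by library sizes alone moved the median log2 fold change of all tested genes to −0.94 and called 306 of the 14967 higher and 5667 lower. Of the members it called *Prkar2b* (0.91) and *Pde3b* (0.94) higher and *Prkaca* (−1.60) lower, and it turned *Adrb1*, *Adrb3* and *Adra1a* negative (−0.62, −0.41 and −0.09).

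**Figure D3:**
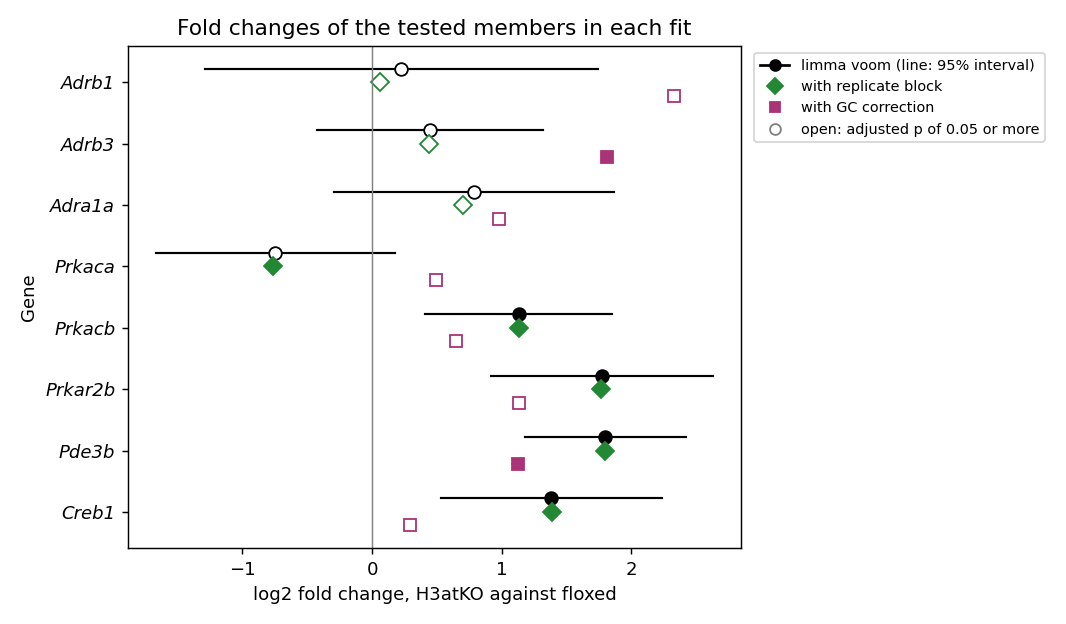
log2 fold change, H3atKO against floxed, of the 8 tested genes by limma voom (circles, with the 95% interval as a line), with the replicate number as a block (diamonds) and with GC correction (squares), filled where the adjusted p is under 0.05. *Pde3b* is filled in all 3 fits, and *Adrb3* is filled with GC correction alone, at 1.81.

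GC content separated the members that rose from those that did not. The 4 that rose had 39.6% to 45.4% GC and fell in deciles 1 and 3 of all tested genes, whose median log2 fold changes were 1.13 and 0.61. The other 4 tested genes had 50.1% to 58.8% GC and fell in deciles 6, 8, 9 and 10, whose medians were −0.18, −1.02, −1.58 and −2.19. All 8 lay above the median of their own decile, a value with as many genes above it as below. *Creb1* at 1.38 against 1.13 was the nearest, within its standard error of 0.365, and *Adrb1* at 0.22 against −2.19 the farthest.

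With the GC correction, which called 5.41% of all tested genes higher and 3.15% lower, 2 members were called higher by limma voom. *Pde3b* still passed (log2 fold change 1.13, adjusted p = 0.0240) and *Adrb3* now passed (1.81, adjusted p = 0.0434). *Adrb1* stood just outside (2.33, adjusted p = 0.0509). *Prkacb* (0.65, adjusted p = 0.0829), *Prkar2b* (1.13, adjusted p = 0.0965) and *Creb1* (0.29, adjusted p = 0.373) no longer passed. The correction also removes any effect of genotype that follows GC content. With both the block and the correction, in which 12.9% of all genes were called higher and 9.84% lower, *Adrb1*, *Adrb3*, *Prkacb* and *Pde3b* were called higher (adjusted p = 0.0357, 0.0178, 0.0339 and 0.0207). *Pde3b* was thus called in each of these 4 fits by limma voom.

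**Figure D4:**
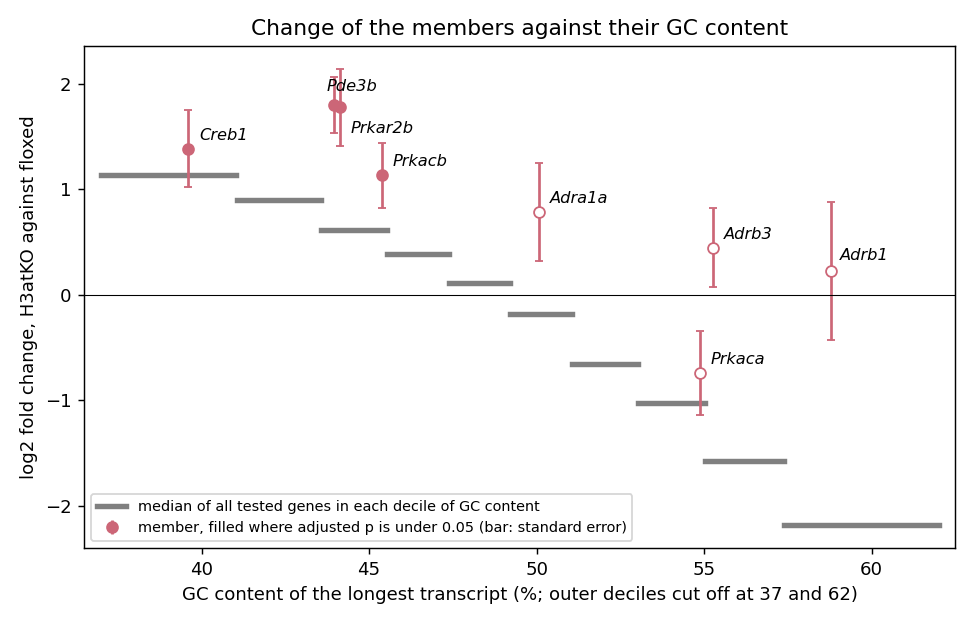
log2 fold change of the 8 tested genes by limma voom against the GC content of the longest transcript in percent, with standard error bars and filled points where the adjusted p is under 0.05, and grey bars at the median of all tested genes in each decile of GC content (outer deciles cut off at 37% and 62%). The decile medians fall from 1.13 to −2.19, and each of the 8 genes lies above that of its own decile.

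Another 122 genes of the pathway, listed by role, were matched, and 113 were tested. By limma voom 11 were called higher and 8 lower (median log2 fold change −0.19, against −0.09 for all tested genes), shares near the background of 9.42% and 7.07%. Those called higher include *Adcy10*, *Akap5* and *Pde1c*, which reached 1 cpm in H3atKO samples only. With edgeR 16 were higher and 25 lower, beside 12.8% and 18.4% of all tested genes. With the replicate block 34 were higher and 33 lower, beside 24.8% and 28.7%. With GC correction, where the shares of all tested genes were 5.41% and 3.15%, 8 were higher and 3 lower, of which 5 were among the first 19.

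Upstream of cAMP, other cyclase-coupled receptors, G proteins and cyclases gave 5 falls and 2 rises by limma voom, and 2 falls and 4 rises with GC correction. Among 14 other receptors that act on the cyclase in fat, 1 was called, *Mc2r*, the corticotropin receptor, which was lower in every H3atKO sample (35.2, 50.7 and 33.1 against 8.60, 14.2 and 14.8 cpm; log2 fold change −1.70, adjusted p = 0.0281 from limma voom) and passed also with GC correction (−2.54, adjusted p = 0.0181). Among 11 G protein subunits, the inhibitory *Gnai1* rose (1.31, adjusted p = 0.0495) and the inhibitory *Gnai2* fell (−2.35, adjusted p = 0.0366), and neither passed with GC correction (0.46 and −0.67, adjusted p = 0.460 and 0.0723). Of 9 tested adenylyl cyclases, 3 fell and 1 rose. *Adcy5*, a transmembrane cyclase, had 284, 107 and 40.5 cpm in floxed and 7.32, 6.78 and 4.93 cpm in H3atKO samples (−4.08, adjusted p = 0.0310 from limma voom), the farthest change of the group, with a wide spread among floxed samples. *Adcy6* fell with it (−2.37, adjusted p = 0.0465), as did *Adcy4*, a gene outside the naming rule and chosen after its values were seen (−2.89, adjusted p = 0.0465). *Adcy10*, the soluble cyclase that bicarbonate activates, rose from a low level (0.307, 0.456 and 0.437 to 3.04, 3.16 and 2.59 cpm; 2.87, adjusted p = 0.0207 from limma voom). No floxed sample reached 1 cpm, so *Adcy10* entered the test through H3atKO samples only, and its call is not independent of the filter. With GC correction *Adcy5* and *Adcy10* passed (adjusted p = 0.0227 and 0.0134), and *Adcy6* and *Adcy4* did not (adjusted p = 0.115 and 0.0710).

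At the level of PKA and its anchors, 0 of 6 other regulatory subunits and inhibitors were called by limma voom, 2 having risen and 1 fallen at an unadjusted p under 0.05, and edgeR called 1 higher. Of 9 tested A-kinase anchoring proteins, which tether PKA, *Akap5* (log2 fold change 2.85, adjusted p = 0.0269) and *Akap11* (1.09, adjusted p = 0.0327) rose and *Akap12* fell (−1.96, adjusted p = 0.0351). With GC correction *Akap5* passed (2.19, adjusted p = 0.0432), and *Akap11* (0.17, adjusted p = 0.504) and *Akap12* (−1.27, adjusted p = 0.0805) did not. *Akap5* stayed low, at 0.170 to 0.395 cpm in floxed and 1.89 to 2.53 cpm in H3atKO samples, and so entered the test through H3atKO samples only. Of 14 other phosphodiesterases 2 rose and none fell by limma voom, where 1 was lower at an unadjusted p under 0.05 and edgeR called 1 lower. They were *Pde1c*, which calmodulin activates (2.80, adjusted p = 0.0262), and *Pde4b* (0.97, adjusted p = 0.0485), neither of which passed with GC correction (adjusted p = 0.0576 and 0.214). *Pde1c* was rare, with 35, 10 and 18 reads in floxed and 75, 60 and 50 in H3atKO samples, and entered the test through H3atKO samples only. Of the EPAC exchange factors, which bind cAMP apart from PKA, *Rapgef4* rose (1.67, adjusted p = 0.0363; 1.26 and adjusted p = 0.0613 with GC correction). The other EPAC gene, *Rapgef3*, outside the naming rule, was lower in every H3atKO sample without passing by limma voom (−3.24, adjusted p = 0.0741). It passed with edgeR and with the replicate block (adjusted p = 0.0256 and 0.00334) and had −1.61 with GC correction (adjusted p = 0.169).

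Of 12 CREB family members and coactivators, *Crem* (12.04, 11.9 and 15.8 against 38.2, 32.8 and 32.2 cpm; log2 fold change 1.40, adjusted p = 0.0241 from limma voom) and *Atf1* (1.05, adjusted p = 0.0468) rose. Both are bZIP factors close to CREB in sequence, and neither passed with GC correction (adjusted p = 0.120 and 0.0981). None of the 12 was called lower by limma voom, but 4 were lower at an unadjusted p under 0.05, and edgeR called these 4 lower and 3 higher. The 4, named after their values were seen, were the CREB coactivators *Crtc1*, *Crtc2* and *Crtc3* and the kinase *Sik3* (log2 fold changes −1.75, −1.52, −1.82 and −1.32, adjusted p = 0.0846, 0.0511, 0.0578 and 0.0590 from limma voom). With GC correction they stood at −0.11, −0.38, −0.06 and −0.22. Of 10 receptor kinases, arrestins and RGS proteins, which switch receptors or G proteins off, 1 rose and 2 fell. The receptor kinase *Grk3* rose in every H3atKO sample (15.4, 12.6 and 16.1 against 53.9, 40.4 and 56.2 cpm; 1.76, adjusted p = 0.0151) and passed with GC correction as well (1.90, adjusted p = 0.0120). The β-arrestins, which uncouple and internalise receptors, both fell, *Arrb1* by 1.79 and *Arrb2* by 1.69 on the log2 scale (adjusted p = 0.0243 and 0.0493 from limma voom), and neither passed with GC correction (adjusted p = 0.050 and 0.626).

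Downstream, 0 of 6 lipid droplet proteins were called by limma voom, 1 having risen and 3 fallen at an unadjusted p under 0.05, and edgeR called 2 lower. *Pnpla2*, adipose triglyceride lipase, had 3199, 1257 and 355 cpm in floxed and 339, 445 and 131 cpm in H3atKO samples, which overlapped (log2 fold change −2.06, adjusted p = 0.0909). It passed with the replicate block (adjusted p = 0.00881) and was at −0.28 with GC correction. Of 12 genes known to respond to cAMP, limma voom called 1, *Dio2*, the deiodinase that activates thyroid hormone. It had 12, 13 and 56 reads in floxed and 1198, 134 and 916 in H3atKO samples, and H3atKO replicate 2 was the lowest of its group (log2 fold change 5.78, adjusted p = 0.0336 from limma voom; 5.03 and adjusted p = 0.0543 with GC correction). In that group edgeR called 2 higher and 2 lower, and the replicate block 4 higher and 3 lower. The others called by edgeR, named after their values were seen, were *Ppargc1a*, a coactivator of mitochondrial genes, at 1.39, the clock gene *Per1* at −2.78 and the insulin receptor substrate *Irs2* at −4.35 (adjusted p = 0.0546, 0.0596 and 0.118 from limma voom). Among genes of catecholamine synthesis, uptake and breakdown, 0 of 5 tested were called by limma voom, 2 having fallen at an unadjusted p under 0.05, and edgeR called 1 lower. *Th*, *Dbh* and *Pnmt*, enzymes of catecholamine synthesis, had 0 to 3 reads in every sample.

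**Figure D5:**
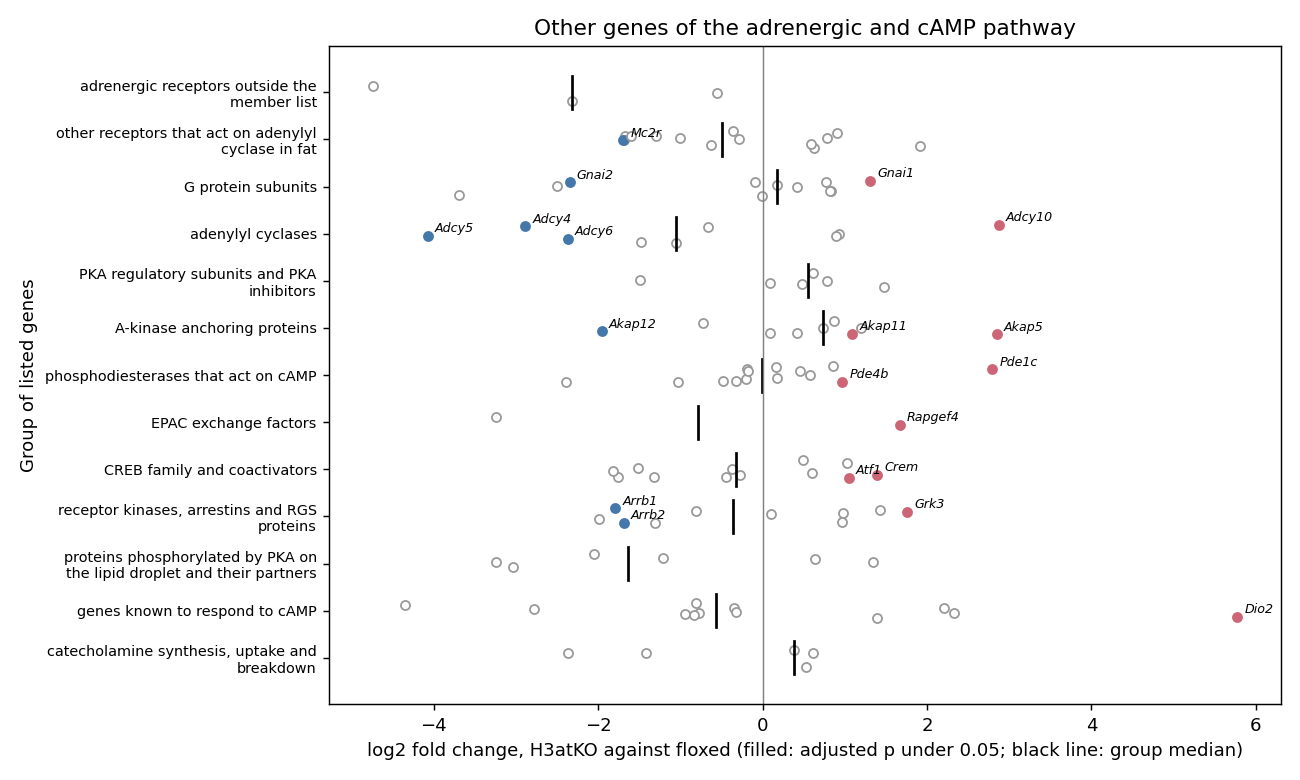
log2 fold change, H3atKO against floxed by limma voom, of the 113 tested genes of the pathway outside the 9, in 13 groups by role, with a black line at each group median. Filled points have an adjusted p under 0.05, 11 in red for higher and 8 in blue for lower, and every group spreads to both sides of 0 except the adrenergic receptors outside the 9, which lie below it.

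The genes whose pattern over the 6 samples was most like that of *Adrb3* were *Hfe*, *Egln3* and *Ptrhd1*, with root mean square distances of 0.0841, 0.183 and 0.198 between centred log2 cpm values.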

How the data were processed

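RNA of IngWAT pools was sequenced by the authors as poly(A)-selected stranded libraries. Per the labels and the study's methods, reads were trimmed with cutadapt 1.3, aligned to GRCm38 with STAR 2.4.2a and counted per Ensembl gene with HTSeq 0.6.1. The authors deposited whole-number counts per gene, not normalized. The tallies of reads given to no gene were left out of library sizes and tests. They took 37.3% to 44.0% of alignments in floxed and 50.3% to 51.7% in H3atKO samples, so they differed by genotype. Symbols, exon lengths and GC content came from GENCODE M21 (46005 of 46517 identifiers matched), and promoters from RefSeq.

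As in the study's methods, the filter was 1 cpm or more in any sample, TMM (edgeR 4.0.16) gave the scaling and voom of limma 3.58.1 in R 4.3.3 gave the comparison of genotypes, at a Benjamini-Hochberg adjusted p under 0.05 over all tested genes. Within-sample ratios used reads per kilobase of exon with 0.5 counts added and a two-sided exact permutation test. GC correction subtracted from each sample's voom values a robust loess curve (span 0.3) of its deviations on GC content, known for 99.7% of tested genes. Other alternatives were edgeR, DESeq2 1.42.0, other scalings and filters, sample quality weights, the replicate block and each sample left out. Of these fits, limma voom, edgeR, the replicate block and GC correction were run on simulated counts, and the other alternatives were not.

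The labels share numbers 1 to 3 between genotypes without saying what a number marks. Deviations from the group means correlated at 0.510, 0.389 and 0.264 (Pearson, across genes) between same-numbered pools and at −0.295 to −0.0516 between others. Within a group a gene's deviations add to 0, so positive values between same-numbered pools force negative ones between others. The numbers paired the samples only in the alternative with the replicate block, and the main fit used genotype alone. P-values from the block thus rest on a pairing seen in these same data. Nothing says which mice or litters a number shares.

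Named are the 9 genes, *Hdac3*, the partners in the ratios, up to 3 called genes per role group by smallest p (with none called, the one with the largest mean count) and the 3 genes nearest to *Adrb3*. The 9 genes, the pathway and marker lists, the tests and the alternatives were chosen with earlier results of these data known. *Pde2a* was not analysed here. Some genes of the lists and 1 of the 5 ratios over which p-values were adjusted are not reported here.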

Additional observations from a re-analysis of the deposited data

How the results depend on the processing

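With each sample left out, members called higher numbered 0 to 4 and lower 0 to 1, other pathway genes higher 0 to 20 and lower 0 to 36, and all tested genes called 1 (without floxed replicate 2) to 6557 (without floxed replicate 3), against 2468 with all 6. All genes called numbered 4665 with edgeR, 6400 with DESeq2, 5973 with library sizes alone, 8443 with sample quality weights, 8007 with the replicate block and 1277 with GC correction. Members called higher numbered 2 with library sizes alone, with no low-count filter (*Prkacb* and *Creb1* lost, adjusted p = 0.0571 and 0.0525) and with GC correction, and members called lower 1, *Prkaca*, with library sizes alone, quality weights and the replicate block. Other pathway genes called higher numbered 23 with DESeq2, 4 with library sizes alone, 35 with quality weights, 34 with the block and 18 with block and GC correction, and called lower 25 with edgeR, 31 with DESeq2, 49 with library sizes alone, 18 with at least 10 counts in every sample, 39 with quality weights, 33 with the block, 3 with GC correction and 16 with both. Without GC correction the block changed the call of no member besides *Prkaca*, and added to the correction it also brought *Adrb1* and *Prkacb* past the threshold.

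*Adrb1* turned to −0.62 with library sizes alone, −0.46 with quality weights, and −0.37 and −0.02 without floxed replicate 3 or H3atKO replicate 3, and rose to 0.53 at most without another sample. *Adrb3* turned to −0.41 with library sizes alone and −0.00999 without H3atKO replicate 2 (0.67 at most without another), *Adra1a* to −0.093 with library sizes alone, and *Prkaca* to 0.49 with GC correction and 0.50 with block and correction. The causes were not tested. Leaving out samples moved the difference in log2 ratio between −0.37 and 2.11 for *Adrb3* to *Adra2a*, −2.44 and −1.42 for *Prkaca* to *Prkacb*, 0.79 and 1.27 for *Prkar2b* to *Prkar1a* and 0.66 and 2.09 for *Pde3b* to *Pde4d*. *Adra2a* was not fitted, so its ratio has no GC-corrected value. *Adra2a* had 1 to 31 reads per sample and *Adrb1* 26 to 108.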

Other observations

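Some genes of the pathway were called higher by GC-corrected limma voom but neither by limma voom nor by edgeR without the correction. They were chosen after their values were seen. *Adcy3*, a cyclase abundant in adipocytes, had a log2 fold change of 0.92 (adjusted p = 0.201 from limma voom) and of 2.64 with the correction (adjusted p = 0.00749), at 56.7% GC. *Gnas*, which encodes the stimulatory G protein subunit, went from 0.18 (adjusted p = 0.684) to 2.12 (adjusted p = 0.0225), at 57.8% GC. *Plin5*, a lipid droplet protein of oxidative tissues, went from 1.35 (adjusted p = 0.152) to 3.49 (adjusted p = 0.00749), at 58.9% GC, and *Adora1*, the adenosine receptor that inhibits lipolysis, from 0.62 (adjusted p = 0.129) to 1.71 (adjusted p = 0.0304), at 54.2% GC. *Crebbp*, a coactivator of CREB, went from 0.49 (adjusted p = 0.135) to 1.09 (adjusted p = 0.0459), at 51.7% GC. With the replicate block and no GC correction, *Adcy3*, *Plin5* and *Crebbp* also passed (adjusted p = 0.0125, 0.0394 and 0.0475), and *Gnas* and *Adora1* did not (adjusted p = 0.581 and 0.0836).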
